A study of Mus musculus with 21 samples.

Results

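The clustered protocadherin genes are 58 genes in tandem on mouse chromosome 18, taken here as every RefSeq gene of that chromosome whose symbol starts with Pcdha, Pcdhb or Pcdhg followed by a number or a letter. They fall into an alpha group of 14 genes, a beta group of 22 and a gamma group of 22, and 57 of the 58 are protein-coding, the exception being the transcribed pseudogene Pcdhgb8. They were set beside 20953 curated protein-coding genes of chromosomes 1 to 19 and X. The study used ChIP-seq to map 6 subunits of the NuRD complex, which combines a nucleosome remodeller with histone deacetylases, in the basal ganglia of CD1 mouse embryos at E13.5, with 1 library per subunit and 3 input libraries that served as controls for peak calling. The labels give no genotype for these embryos. It also measured chromatin accessibility by ATAC-seq in the basal ganglia of E12.5 CD1 embryos of 2 genotypes, wild type (WT) and Dlx1/2 knockout (KO), each in cell fractions labelled FTpos and FTneg, with 3 embryos per genotype and fraction. The sources used here do not say how many embryos went into a ChIP library.

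The deposited ChIP files are lists of peaks, each with the fold enrichment over input that the authors' caller gave at the peak summit, and together they hold 91480 peaks. No list has a replicate and the files give no read depth, so every value below is a count or a level in 1 library, given without a test. Moreover, 3 of the 6 lists carry the name of a subunit other than the one on their sample. The list of the CHD4 sample is named HDAC1, that of the HDAC1 sample HDAC2, and that of the HDAC2 sample CHD4. The labels pair the HDAC1 and HDAC2 samples with 1 input and the CHD4 and MBD3 samples with another, and the lists that carry those names share a prefix in the same pairs, whereas the samples they are attached to do not. Which of the 2 names is right was not settled. The lists are called CHD4-labelled, HDAC1-labelled and HDAC2-labelled here, and what is said of them holds for the list and not necessarily for the protein. Among genes that mark the ganglionic eminences, the source of the basal ganglia, Dlx1 had peaks of 5 lists at an annotated end, Dlx2 of 4, Nkx2-1 of 3 and Gsx2 of 2.

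Protocadherins are calcium-dependent adhesion molecules of the neuronal surface that bind to their own kind on the facing cell. Each alpha and gamma gene has a variable first exon with its own promoter, which is spliced to constant exons shared by the whole group, while each beta gene is a single exon with no constant part. Most alpha, beta and gamma genes are switched on in a random few per neuron, through loops held by CTCF and cohesin between the chosen promoter and distant enhancers. The C-type genes at the 3' side of the alpha group (Pcdhac1 and Pcdhac2) and of the gamma group (Pcdhgc3, Pcdhgc4 and Pcdhgc5) are not part of that random choice and are found more evenly across neurons.

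The cluster spans 911.6 kb (mm10 chromosome 18, 36930285 to 37841873). The alpha group runs from 36930285 to 37188897, the beta group from 37264998 to 37521419 and the gamma group from 37661775 to 37841873. The starts of the members are separate, with at least 3779 bp between neighbours. The 3' ends are not, since 13 of 14 alpha genes end within 10 bp of the commonest alpha end and 21 of 22 gamma genes within 10 bp of the commonest gamma end. A peak at the shared gamma 3' end is therefore counted for nearly every gamma gene, and starts and 3' ends are given separately below.

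A peak of some list was found at the start of 3 of the 58 members, and all 3 were C-type genes: Pcdhac2, Pcdhgc3 and Pcdhgc4. The other 55 members had no peak of any list within 1 kb of their start. That is 5.17% of members with a peak (exact 95% binomial interval 1.08 to 14.4, which treats neighbouring genes as independent, as they are not), where 55.5% of 16783 curated genes of known strand had one. By group, 1 of 14 alpha genes, 0 of 22 beta genes and 2 of 22 gamma genes had a peak at the start. The difference between the groups was not tested, since each count comes from 1 locus read once per subunit.

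All 12 variable alpha genes (Pcdha1 to Pcdha12), all 22 beta genes (Pcdhb1 to Pcdhb22), all 12 gamma A genes (Pcdhga1 to Pcdhga12) and all 7 gamma B genes, the pseudogene Pcdhgb8 included, were without a peak at the start in each of the 6 lists. Among the 5 C-type genes 2 were as well, Pcdhac1 and Pcdhgc5. The CHD4-labelled, HDAC1-labelled and RBBP4 lists each had peaks at the same 3 starts, beside a share over all genes of 45.1%, 27.4% and 45.7%. MBD3, the methyl-CpG-binding-domain subunit of the complex, had a peak at the start of Pcdhac2 alone (22.5% over all genes). RBBP7, a histone-binding subunit, had one at the start of Pcdhgc3 alone (11.3%), and the HDAC2-labelled list had none at any member (9.38%). Both Pcdhac2 and Pcdhgc3 carried 4 lists at their start and Pcdhgc4 carried 3. Over all genes 18.9% carried 4 or more.

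**Figure D1:**
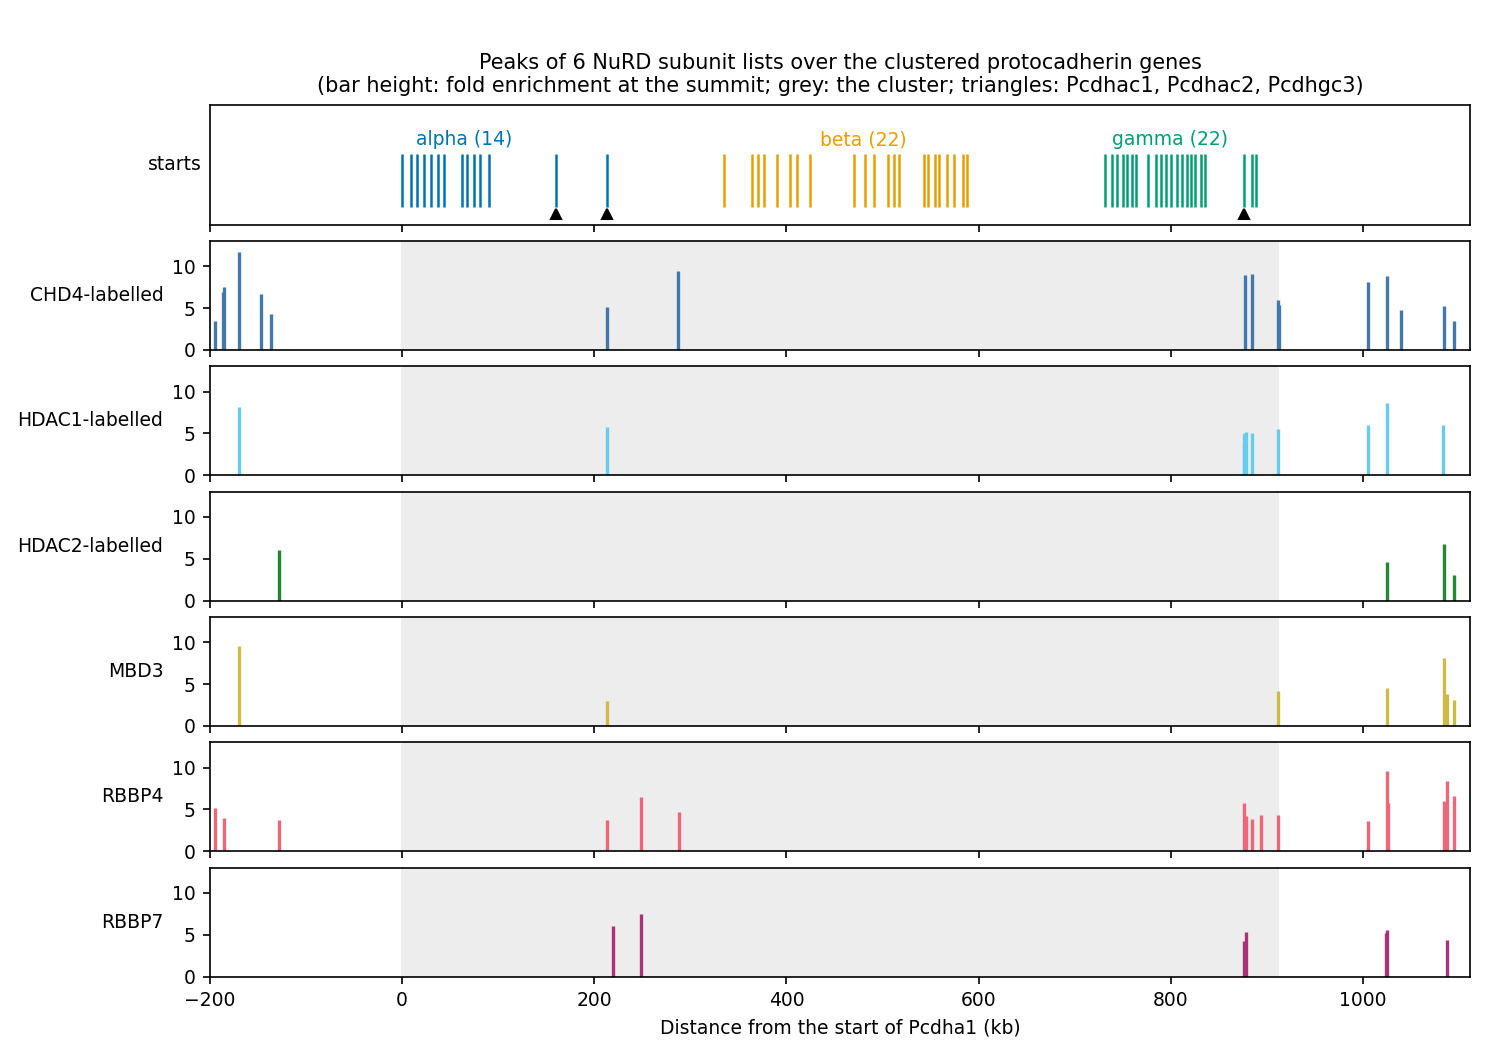
Position along the cluster, in kb from the start of Pcdha1 with 200 kb on either side, against the fold enrichment of every deposited peak, drawn as a bar at its summit, for each of the 6 ChIP lists. The top row marks the starts of the 14 alpha, 22 beta and 22 gamma genes; peaks stand at Pcdhac2, beyond it and from Pcdhgc3 onward, and none stands over the beta genes.

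Counted at either annotated end of a gene, start or 3' end, the counts were different. All 22 gamma genes then had a peak, while the alpha count stayed at 1 of 14 and the beta count at 0 of 22, so that 23 of 58 members (39.7%) had one beside 57.3% over all genes. The gain came from the shared gamma 3' end, where the CHD4-labelled and HDAC1-labelled lists reached 21 of 22 gamma genes and the MBD3 and RBBP4 lists all 22. Shares over all genes by this rule were 45.7% for the CHD4-labelled list, 28.0% for the HDAC1-labelled list, 10.0% for the HDAC2-labelled list, 23.8% for MBD3, 47.9% for RBBP4 and 12.51% for RBBP7. Since 1 group of peaks stands behind the 22 gamma counts, the excess of gamma over alpha and beta is a statement about 1 place and not about 22 genes. The shared alpha 3' end had no peak of any list.

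**Figure D2:**
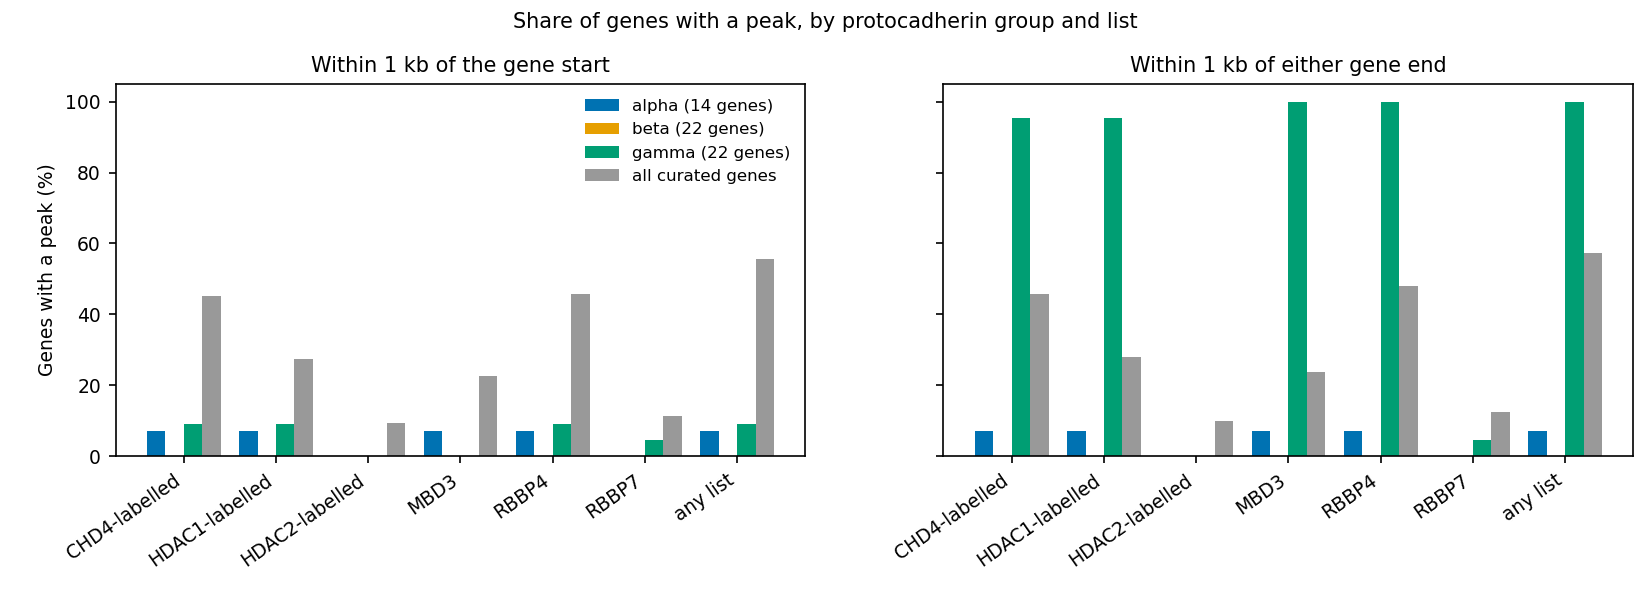
Percentage of genes with a peak within 1 kb, for alpha (14 genes), beta (22), gamma (22) and all curated genes, by list and for any list; the left panel counts the gene start and the right panel either annotated end. At starts each group lies below all genes in every list, and at either end the gamma bars reach 100% for MBD3 and RBBP4 through their shared 3' end.

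Pcdhac2, the last alpha gene (37143678 to 37187663) and a C-type isoform known from the wiring of serotonergic axons, had 1 peak in each of 4 lists at its start. The fold enrichment was 5.80 in the HDAC1-labelled list, 5.14 in the CHD4-labelled list, 3.69 in RBBP4 and 2.93 in MBD3. The 4 peaks merged into 1 region of 1296 bp (37143493 to 37144788). Their summits lay close to the annotated start, 7 bp before it in MBD3 and 19, 123 and 275 bp after it in the RBBP4, HDAC1-labelled and CHD4-labelled lists. In 3 of the 4 lists the peak was below the median of its list and in the HDAC1-labelled list above it: the MBD3 value was higher than 2.59% of all MBD3 peaks, the RBBP4 value than 13.9%, the CHD4-labelled value than 38.5% and the HDAC1-labelled value than 69.9%. None of the 4 reached a −log10 q of 10, and with that threshold no list was left at Pcdhac2.

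Pcdhgc3, the first gamma C-type gene (37806410 to 37841873), carried the longest peak region of the cluster. In the CHD4-labelled list a single peak of 3430 bp (37805636 to 37809065), wider than 98.7% of that list's peaks, covered the start with a fold enrichment of 8.91 and a summit 834 bp after it. The HDAC1-labelled list split the same stretch into 5 peaks, of which 3 lay within 1 kb of the start with fold enrichments of 3.97 to 4.97. The RBBP4 list had 3 peaks there, 2 of them at the start (5.78 and 4.02), and RBBP7 had 2, 1 of them at the start (4.23, summit 283 bp before it). In all 11 peaks of 4 lists made up this region. MBD3 and the HDAC2-labelled list had none. At a −log10 q of at least 10 the CHD4-labelled peak and the RBBP4 peak of 5.78 remained.

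Pcdhgc4 (37815079 to 37841873), the gamma isoform known for its part in the survival of developing neurons, interneurons among them, had 1 peak in each of 3 lists. Fold enrichment was 9.10 in the CHD4-labelled list, with the summit 29 bp before the start, 5.01 in the HDAC1-labelled list and 3.87 in RBBP4, with summits 324 and 309 bp after it. The merged region measured 1463 bp (37814208 to 37815670). The CHD4-labelled peak was higher than 86.9% of its list and the only one of the 3 to pass a −log10 q of 10, while the RBBP4 peak was higher than 19.4% of its own. Pcdhgc5 (37819546 to 37841873), the next gene, had none at its start. An RBBP4 peak with a fold enrichment of 4.28 lay 4.76 kb after it, within the gene (37824303 to 37824594), and no other list had a peak there.

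**Figure D3:**
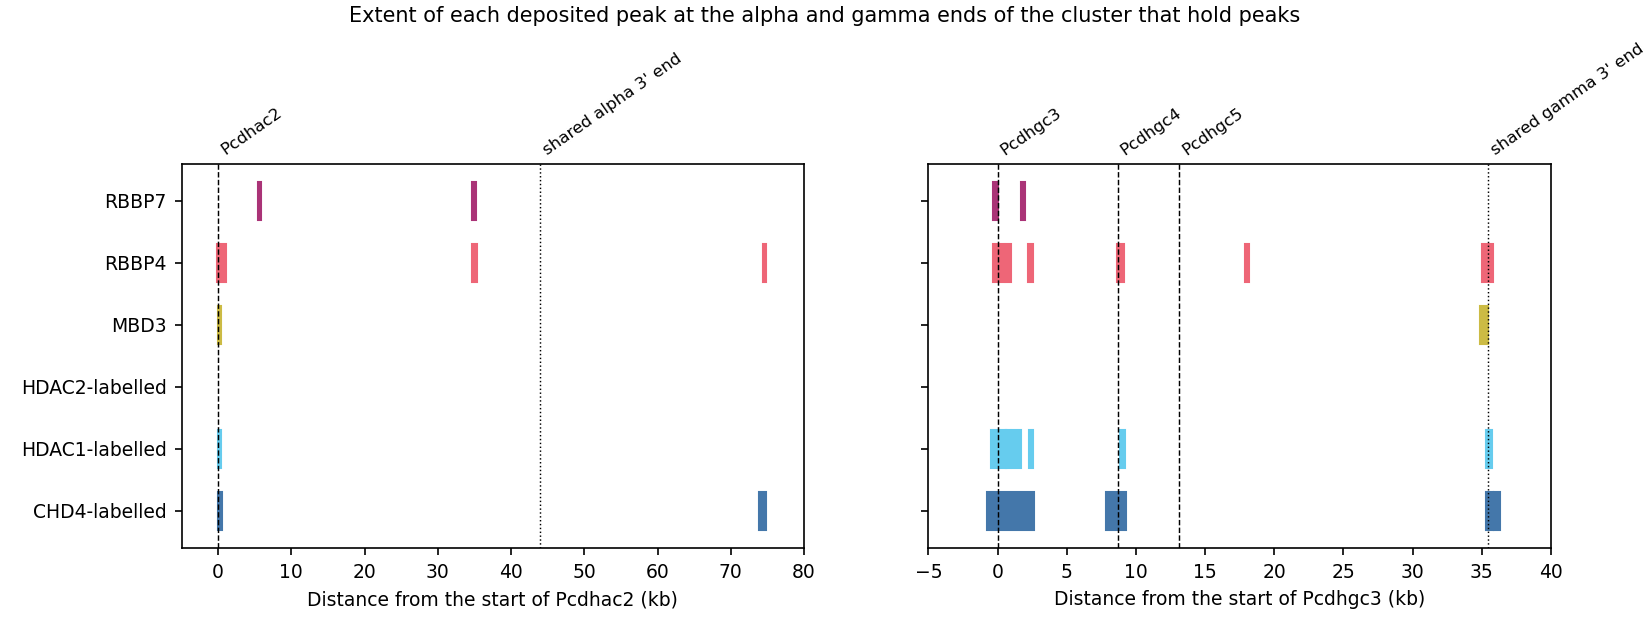
Extent of each deposited peak (coloured block) by list, against the distance in kb from the start of Pcdhac2 (left) and of Pcdhgc3 (right); dashed lines are gene starts and dotted lines the shared 3' ends. Peaks of 4 lists stack at Pcdhac2, 4 at Pcdhgc3, 3 at Pcdhgc4 and 4 at the gamma 3' end, and the HDAC2-labelled row is empty.

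The shared 3' end of the gamma genes carried peaks of 4 lists in a region of 985 bp (37841258 to 37842242). Fold enrichment was 6.01 in the CHD4-labelled list, 5.55 in the HDAC1-labelled list, 4.33 in RBBP4 and 4.21 in MBD3, and their summits lay 80 and 87 bp past the last annotated base in the first 2 and 291 and 202 bp before it in the others. A second CHD4-labelled peak (5.32) followed at 37842301 to 37842756. The annotated body of Diaph1, a formin gene, begins 1.73 kb from the cluster, so these peaks lie at the last bases of the gamma genes or between the annotated ends of the 2 loci. Whether they belong to the protocadherins or to another element was not tested.

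Away from starts and 3' ends, 3 regions were left on the alpha side. RBBP7 alone had a peak at 37149153 to 37149527, its summit 5746 bp after the start of Pcdhac2 (fold enrichment 6.09). RBBP4 (6.52) and RBBP7 (7.41) shared a region at 37178376 to 37178989, 34.7 kb after that start and within the annotated span of all 14 alpha genes. It was the strongest RBBP4 and RBBP7 signal in the cluster, higher than 81.1% and 71.99% of their lists, and both peaks passed a −log10 q of 10. The CHD4-labelled list (9.45, its strongest in the cluster) and RBBP4 (4.66) met at 37217478 to 37218494, in the interval between the alpha and beta groups, 28.6 kb past the last alpha end and 46.5 kb before Pcdhb1. An enhancer of the alpha genes named HS5-1 is known downstream of their constant exons, and the RefSeq gene table used here marks no enhancers, so whether this region is that element was not tested.

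Across the cluster, 29 peaks were counted in all (within 1 kb of its ends included): 9 in RBBP4, 8 in the HDAC1-labelled list, 6 in the CHD4-labelled list, 4 in RBBP7, 2 in MBD3 and 0 in the HDAC2-labelled list, the shortest of the 6 lists with 5517 peaks. They merged into 9 regions, 3 with 4 lists, 1 with 3, 2 with 2 and 3 with 1, and none with 5 or 6. Of 38820 merged regions in the genome, 18683 had 1 list, 8005 had 2, 4874 had 3, 3343 had 4, 2388 had 5 and 1527 had 6. With 9 regions, the absence of any with 5 or 6 lists says nothing particular about the cluster. The fold enrichments of the 29 cluster peaks ran from 2.93 to 9.45, and 9 of the 29 were above the median of their own list. The cluster's median against the list's was 7.46 against 5.64 in the CHD4-labelled list, 5.04 against 5.22 in the HDAC1-labelled list, 3.57 against 4.61 in MBD3, 4.28 against 4.85 in RBBP4 and 5.67 against 6.20 in RBBP7. Of these 5 lists the CHD4-labelled list was the only one whose cluster median exceeded its own median, with 4 of its 6 cluster peaks above it.

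**Figure D4:**
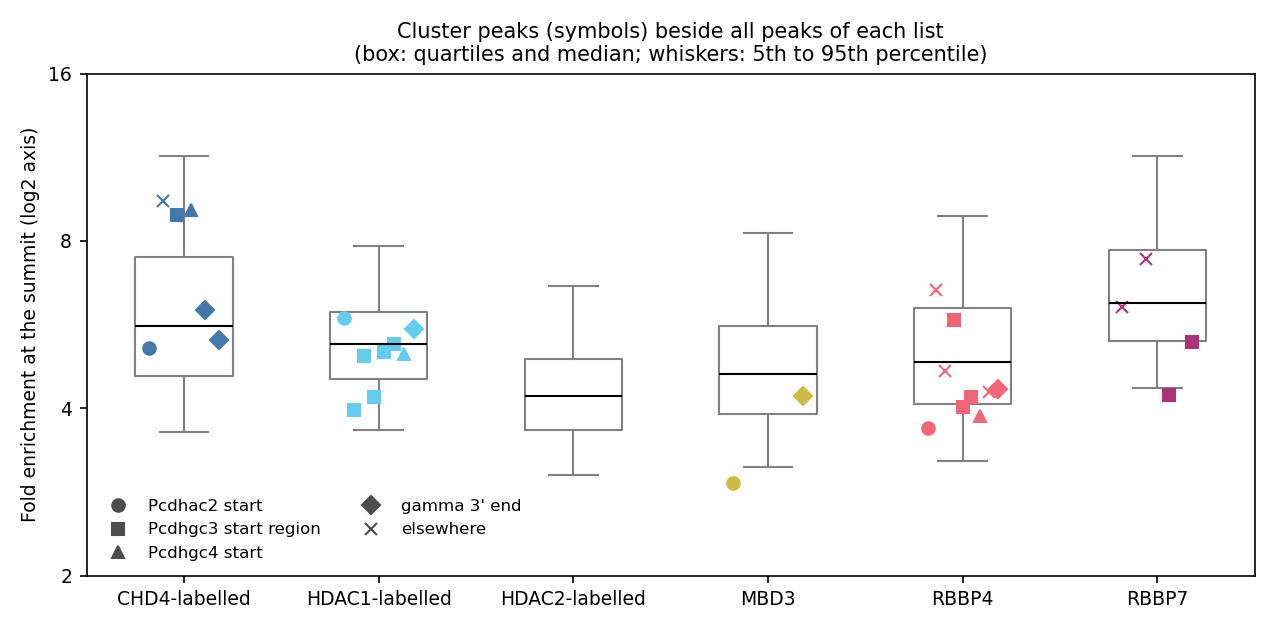
Fold enrichment at the summit (log2 axis) of each cluster peak, by symbol for its place, over a box of all peaks of the same list (quartiles and median, whiskers from the 5th to the 95th percentile). The 3 highest CHD4-labelled peaks, from 8.91 to 9.45, lie above the upper quartile of that list, and the MBD3 peak at Pcdhac2 (2.93) lies below the lower whisker.

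By density the 3 groups ranked gamma, alpha, beta. Summed over the 6 lists, the gamma interval held 17 peak summits (9.44 per 100 kb), the alpha interval 7 (2.71) and the beta interval 0. Of the 17 gamma summits, 11 lay in 1 merged region at Pcdhgc3, so the density counts peaks and not separate places. Without the HDAC1-labelled or without the RBBP4 list, each of which gave 6 of the gamma summits, the gamma value was 6.11. That value is over fewer lists than those that follow and is not to be set beside them. Over all 6 lists the whole cluster, from its first to its last base, held 26 summits (2.85 per 100 kb). Chromosome 18 as a whole held 3.77 per 100 kb and all chromosomes together 3.54, also over all 6 lists. Only the HDAC1-labelled list was denser in the cluster than on chromosome 18 (0.768 against 0.514). Within a group the peaks were not spread out. The 212.4 kb from Pcdha1 to 1 kb before Pcdhac2 and the 143.6 kb from Pcdhga1 to 1 kb before Pcdhgc3 held 0 summits, against 7 in the 46.2 kb from Pcdhac2 to the last alpha end and 20 in the 37.5 kb from Pcdhgc3 to 1 kb past the gamma end. These smaller intervals were drawn after the peaks had been seen.

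Peaks of the 6 lists left 2 long stretches free within the cluster, and 54 of the 58 member starts lay in them. The first, 341.4 kb from 36802099 to 37143492, held 13 starts, Pcdha1 to Pcdha12 and Pcdhac1. The second, 587.1 kb from 37218495 to 37805635, held 41, all of the beta genes and the gamma A and B genes. The median distance between neighbouring merged regions in the genome was 25.3 kb over 38800 such stretches, and on chromosome 18 the second stretch ranked 13 in length among 1311. The second also held Slc25a2, a mitochondrial carrier gene, and Taf7, a gene for a subunit of the general transcription factor TFIID, and neither had a peak. The names of the CHD4-labelled peaks are numbered in order, and 1 number is skipped between the peaks on either side of this second stretch, so 1 peak of the authors' numbering that is not analysed here may lie in it. Protocadherin genes of a group resemble one another in sequence, and the authors' settings for reads that map to several places are not given in the sources used here. The part of mapping in the absence of peaks at these genes was not tested.

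The chromosome around the cluster was not bare. The 200 kb before it held 12 peak summits (6.0 per 100 kb over the 6 lists) and the 199.0 kb after it, from 1 kb past its end, held 24 (12.1). Of 15 other curated genes inside or within 200 kb of the cluster, 11 had a peak at an annotated end. Over all genes 57.3% had one. The other 4 had none (Dnd1, Slc25a2, Taf7 and Arap3). Neighbours shared peaks, Ndufa2 with Ik and Hars with Hars2 among them, so the 11 genes are not 11 separate places. A further 3 genes, Gm37013, Gm38666 and Gm38667, span from the alpha to the gamma group, are not matched by the symbol rule and share the gamma 3' end and its 4 lists. Hdac3, the gene of a histone deacetylase of another corepressor complex, and its neighbour Rell2 carried all 6 lists, 95.1 and 113.2 kb past the cluster. The highest value of each list was the same for both genes, from peaks where the genes meet. Fold enrichments there ran from 4.55 in MBD3 to 9.56 in RBBP4. Wdr55, 166.6 kb before the cluster, had 11.7 in the CHD4-labelled list, 9.57 in MBD3 and 8.12 in the HDAC1-labelled list.

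Of 12 non-clustered members of the family, 10 had a peak of some list at an annotated end, with a median of 4 lists. These genes take no part in the random choice, and whether that bears on their peaks was not tested. At an annotated end, 42.7% of all genes carried 0 lists and 11.7% carried 1, and 57.3% had a peak of some list. By the same rule 23 of the 58 clustered genes had one, 22 of them through the shared gamma 3' end, and by starts alone 3 did. The CHD4-labelled and RBBP4 lists each reached 9 of the 12 non-clustered genes (45.7% and 47.9% over all genes). The HDAC1-labelled and MBD3 lists each reached 7 (28.0% and 23.8%), RBBP7 6 (12.51%) and the HDAC2-labelled list 1 (10.0%). Pcdh1, on the same chromosome 344.0 kb past the cluster, carried all 6 lists, with fold enrichments from 4.26 in the HDAC2-labelled list to 7.50 in the CHD4-labelled list. Pcdh7, Pcdh17 and Pcdh18 carried 5, and Pcdh10, a delta protocadherin, had the highest value of the 12 (14.3, in the CHD4-labelled list). Pcdh9 and Pcdh12 had none at an end, although 46 peaks of the 6 lists lay in the long body of Pcdh9 and 0 in that of Pcdh12.

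Genes for factors known to control the clustered protocadherins were also read, as background to the locus. Of 23 such genes, 18 had a peak of some list at an annotated end, where 57.3% of all genes had one, and 5 had none (Rad21, Nipbl, Stag1, Dnmt1 and Dnmt3a), with 6, 3, 15, 5 and 16 peaks in their bodies. Ctcf, whose protein sits at the protocadherin promoters and enhancers, carried 5 lists, with 17.5 in the CHD4-labelled list and 15.3 in MBD3. Dnmt3b, a DNA methyltransferase that methylates protocadherin promoters in the early embryo, also carried 5, with 8.46 in RBBP4. Smchd1, a repressor of the cluster, carried 4, from 3.81 in RBBP4 to 6.25 in the CHD4-labelled list. Wiz, Rest, Pds5a and Ehmt1 carried 5 each.

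No region of differing accessibility between WT and Dlx1/2 KO embryos lay in the cluster or within 100 kb of it. Each of the 4 accessibility lists was made by the authors by comparing the genotypes over the embryos together, and each gives only regions that passed an area of at least 500 under the curve of −log10 p. The FTneg list of regions more open in the KO held 727 regions, of which 33 were on chromosome 18, a mean of 0.344 per 911.6 kb, so that a count of 0 says nothing particular about the cluster, and the nearest of these (42836101 to 42836644, area 636) lay 4994 kb from the cluster. The FTneg list more open in WT had 1 region on chromosome 18, 7281 kb away, the FTpos list more open in WT had 2, the nearer 17199 kb away, and the FTpos list more open in the KO had none there. Since the lists give only regions that differ, they do not show whether the protocadherin promoters were open in either genotype.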

How the data were processed

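Members, lists and comparisons were chosen with earlier results of these data known. The authors worked on build mm10 with MACS2 2.2.7.1, Genrich, deepTools, SAMtools 1.10 and BWA, as the submitters' processing notes list them without settings. The fold enrichment (a ratio), the −log10 p and −log10 q and the score of each ChIP peak are the authors' deposited values, and so are the area score and −log10 p of each accessibility region. Lists were named by the sample they are attached to. Peaks and genes (RefSeq, GRCm38.p6, the assembly of mm10) were joined with Python 3.11.15, pandas 2.3.3 and numpy 2.4.6, a peak counting when any base lay within 1 kb of a gene end; peaks that share a base were merged into regions. The gene table gives no strand, so all members were read from their lower coordinate, as the shared 3' ends of alpha and gamma show, and starts of other genes took their strand from the RefSeq promoter table (16783 of 20953 genes, none on chromosome 18). That table matched 0 of 58 members, so promoter sequence was not analysed here. Exact binomial (Clopper-Pearson) intervals came from scipy 1.17.1 and cover counting over genes only. Members named were the 20 with most lists at the start (3 with any, the others by position), the C-type genes and the first and last of each group. The overlap functions were tested on simulated data.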

Additional observations from a re-analysis of the deposited data

How the results depend on the processing

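Windows of 500 bp and 2 kb and summits in place of any overlap moved no count of members by more than 1.5 times, and the accessibility counts were 0 at an area of at least 1000 too. Leaving out each list in turn (added after seeing the data) left the counts of members with a peak of any list as they were in all 3 groups. It took the gamma interval to 6.11 summits per 100 kb without the HDAC1-labelled list and to 6.11 without RBBP4. Restricting peaks to a −log10 q of at least 10 and counting starts alone moved more. At that q, 10 of 29 cluster peaks were left, where 48.1% of all peaks were; 0 alpha genes had a peak at the start or at either end, the alpha interval fell to 0.773 and the gamma interval to 2.22 summits per 100 kb, and 2 of 58 members against 48.6% of all genes had a peak at the start. At that threshold the HDAC1-labelled and MBD3 lists had no cluster peak, so no median fold enrichment is given for them. Counting starts alone took the gamma group from 22 genes to 2. With MBD3, RBBP4 and RBBP7 alone, the lists named as their samples (added after seeing the data), the same 3 starts had a peak, with 2 lists at Pcdhac2, 2 at Pcdhgc3 and 1 at Pcdhgc4. In all, 33 values of single lists or single genes moved. No paired analysis was possible because each ChIP list is 1 library and the accessibility lists combine the embryos; for the same reason no replicate could be left out. Depth is unknown, so a member without a peak is one without a peak in these lists.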

Other observations

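Among stretches of the genome without a peak of any list, the one over the beta and gamma A and B genes stood out more by its genes than by its length. It ranked 409 by length among 38800 stretches but 11 by the number of curated protein-coding genes whose lower-coordinate end lies in it (42, of them 40 protocadherins). Of the 10 stretches with more, 6 were led by olfactory receptor genes (Olfr symbols), up to 198 genes in 4502 kb on chromosome 2, and the others included stretches led by vomeronasal receptor (Vmn1), defensin (Defa) and keratin-associated (Krta) symbols. These are also tandem gene families, and no cause was tested.

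The names of the ChIP peaks are numbered in order and skip 330 numbers in the CHD4-labelled list, 163 in the HDAC1-labelled list, 86 in the HDAC2-labelled list, 156 in MBD3, 406 in RBBP4 and 145 in RBBP7. Per the list names blacklisted regions were removed. In the cluster 1 number is skipped, in the CHD4-labelled list, between 37218438 and 37805636.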
